A study of Mus musculus with 24 samples.

Results

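A set of 10 marker genes of mature adipocytes was followed in mouse gastrocnemius, a calf muscle, during cast immobilization with and without the peptide MOTS-c. The members are Adipoq, Plin1, Cidec, Cfd, Retn, Lep, Fabp4, Pparg, Cebpa and Lipe, taken as a named list and found by symbol among 55487 genes in the tables. All 10 passed the filter on low values, which kept 14690 genes, and none was listed at 0 in any of the 24 libraries. The mice were male C57BL/6J, 10 weeks old at the start and 12 weeks old by the label on the samples, with 1 poly-A RNA library per mouse and 8 mice in each of 3 groups. In the uncasted group the hindlimbs were free and water was injected intraperitoneally 2 times a day for 8 days. The casted group had both hindlimbs in casts for 8 days and received the same water injections. The casted MOTS-c group had the casts and received MOTS-c at 15 mg/kg/day by the same route and schedule. The peptide is compared between casted mice alone, and an uncasted group with MOTS-c was not analysed here.

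White adipocytes store triglyceride in a single large droplet and secrete hormones, the adipokines. Their gene program is switched on by the transcription factors PPAR gamma and C/EBP alpha, which directly activate many lipid-droplet and adipokine genes. In skeletal muscle, adipocytes lie between fibres and fascicles in small numbers and arise from fibro-adipogenic progenitors, the stromal cells of the tissue. In bulk RNA from a whole muscle, fewer adipocytes and less RNA per adipocyte cannot be told apart. Of the genes, 6 are expressed mainly in adipocytes in this tissue (Adipoq, Plin1, Cidec, Cfd, Retn and Lep). The other 4 are also known from other cells of muscle: Fabp4 from capillary endothelium and macrophages, Pparg from macrophages, Cebpa from myeloid and stromal cells, and Lipe from the fibres themselves.

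Levels are TPM, the share of a library's transcripts that a gene holds once its length is allowed for, after scaling that brings the typical gene to a like level in all libraries. Differences are log2 fold changes of scaled TPM + 1 from limma with its standard error (SE), and a gene was called at a Benjamini-Hochberg adjusted p under 0.05 over all 14690 genes tested. On the deposited TPM, without scaling, the median gene was 0.39 (log2) higher in casted than in uncasted libraries, -0.07 in MOTS-c against casted, and 0.34 higher in casted MOTS-c than in uncasted libraries, so both scales are given where they part. Between 19832 and 21755 genes were above 0 in a library, and depth is unknown because TPM carry none. Genes of muscle fibres took 134581 to 156016 scaled TPM in the uncasted libraries, which are the defining genes of the labelled tissue. Replicates 1 to 4 and 5 to 8 of the casted group gave different numbers of calls for MOTS-c. Fitted against 1 to 4 alone, the MOTS-c libraries had 1 gene called higher and 1 called lower. Against 5 to 8 alone they had 678 and 838. Such counts depend on the spread within a set as well as on its level. The SD of Adipoq was 2.04 in 1 to 4 and 0.933 scaled TPM in 5 to 8. The sets were not compared with each other or with other splits of the group. The labels do not say what these replicate numbers stand for, and values for each set are given beside the results that rest on them.

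RefSeq promoter windows of GRCm38.p6, the 250 bases before an annotated start, were at hand for 9 of the 10 members, 13 windows in all. Those of 4 genes are shown because their genes carry the differences below: Adipoq and Cfd, whose levels followed each other most closely, and Lep and Pparg, which were called lower in casted MOTS-c than in uncasted muscle on the scaled values, though neither was called on the deposited TPM. Capitals mark matches, on either strand, to CCAAT or to the C/EBP-type motif TTGCNNAA. Each sequence reads 5′ to 3′ on the gene's strand.
Adipoq promoter, chr16:23146286-23146535, plus strand: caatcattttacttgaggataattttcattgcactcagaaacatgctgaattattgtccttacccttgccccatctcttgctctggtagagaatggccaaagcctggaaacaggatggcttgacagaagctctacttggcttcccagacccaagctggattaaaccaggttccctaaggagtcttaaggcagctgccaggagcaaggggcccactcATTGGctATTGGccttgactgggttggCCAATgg
Cfd promoter, chr10:79890603-79890852, plus strand: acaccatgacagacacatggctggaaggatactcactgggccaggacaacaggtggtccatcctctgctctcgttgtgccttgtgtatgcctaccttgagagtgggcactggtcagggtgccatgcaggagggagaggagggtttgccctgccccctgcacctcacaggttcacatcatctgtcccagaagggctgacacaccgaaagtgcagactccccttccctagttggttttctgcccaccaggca
Lep promoter, chr6:29059971-29060220, plus strand: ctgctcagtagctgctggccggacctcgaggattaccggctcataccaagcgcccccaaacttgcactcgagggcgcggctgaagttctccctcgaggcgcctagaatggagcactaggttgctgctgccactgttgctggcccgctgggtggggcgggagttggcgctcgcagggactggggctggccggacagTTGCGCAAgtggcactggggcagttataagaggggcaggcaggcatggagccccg
Pparg promoter at the third of its annotated starts, chr6:115421816-115422065, plus strand: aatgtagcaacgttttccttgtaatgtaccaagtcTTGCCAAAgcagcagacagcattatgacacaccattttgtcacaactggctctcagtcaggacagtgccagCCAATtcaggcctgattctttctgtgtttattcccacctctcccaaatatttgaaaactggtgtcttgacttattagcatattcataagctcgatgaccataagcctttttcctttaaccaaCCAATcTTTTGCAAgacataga
The Adipoq window holds 3 CCAAT matches, beginning 34, 27 and 7 bases before the start. The Cfd window holds neither motif. The Lep window holds 1 C/EBP-type match beginning 55 bases before the start, and the Pparg window holds 2, at 215 and 16 bases, with 2 CCAAT matches. Over the members, TTGCNNAA was found in 4 of 13 windows (1 each of Lep, Cidec, Pparg and Plin1), where 9.56% of all 32851 windows of this length held it, and CCAAT in 3 of 13 (1 of Adipoq and 2 of Pparg), where 33.8% did. The PPAR-type direct repeat, AGGNCA on both sides of 1 free base, present in 0.338% of all windows, was not in any member's window.

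In the uncasted muscle the members spanned a wide range of levels. Fabp4 (226 ± 32.9 scaled TPM, mean ± SD, n = 8) was the highest and Cfd (44.7 ± 8.83) came next, with no overlap between their libraries. Lipe (11.3 ± 1.57), Adipoq (7.46 ± 1.66) and Cidec (4.93 ± 1.43) followed, below every library of Cfd, and each overlapped the next. Cebpa (3.44 ± 0.433), Plin1 (3.31 ± 1.31), Pparg (3.02 ± 0.641) and Retn (2.03 ± 0.409) formed a low group whose neighbours also overlapped. Lep (0.638 ± 0.274) was the lowest, with every library below those of Retn. Of the markers of brown and beige adipocytes, Ucp1, the uncoupling protein of brown fat, was listed at 0 in 22 of 24 libraries and Elovl3 in 24 of 24, while Cidea and Dio2 were at levels like that of Lep. Cidea, a droplet protein of brown and beige fat, was at 0.377, 0.628 and 1.01 scaled TPM in uncasted, 0.348, 0.548 and 0.824 in casted and 0.729, 0.898 and 1.30 in casted MOTS-c libraries. With MOTS-c 6 of 8 libraries were above the highest casted one, a log2 difference of 0.31 ± 0.09 (unadjusted p = 0.00111, limma adjusted p = 0.162), and against uncasted libraries Cidea was called higher by 0.28 ± 0.09 (limma adjusted p = 0.00759). Dio2 was at 0.641, 0.620 and 0.613 scaled TPM (means) and was not called in any comparison.

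**Figure D1:**
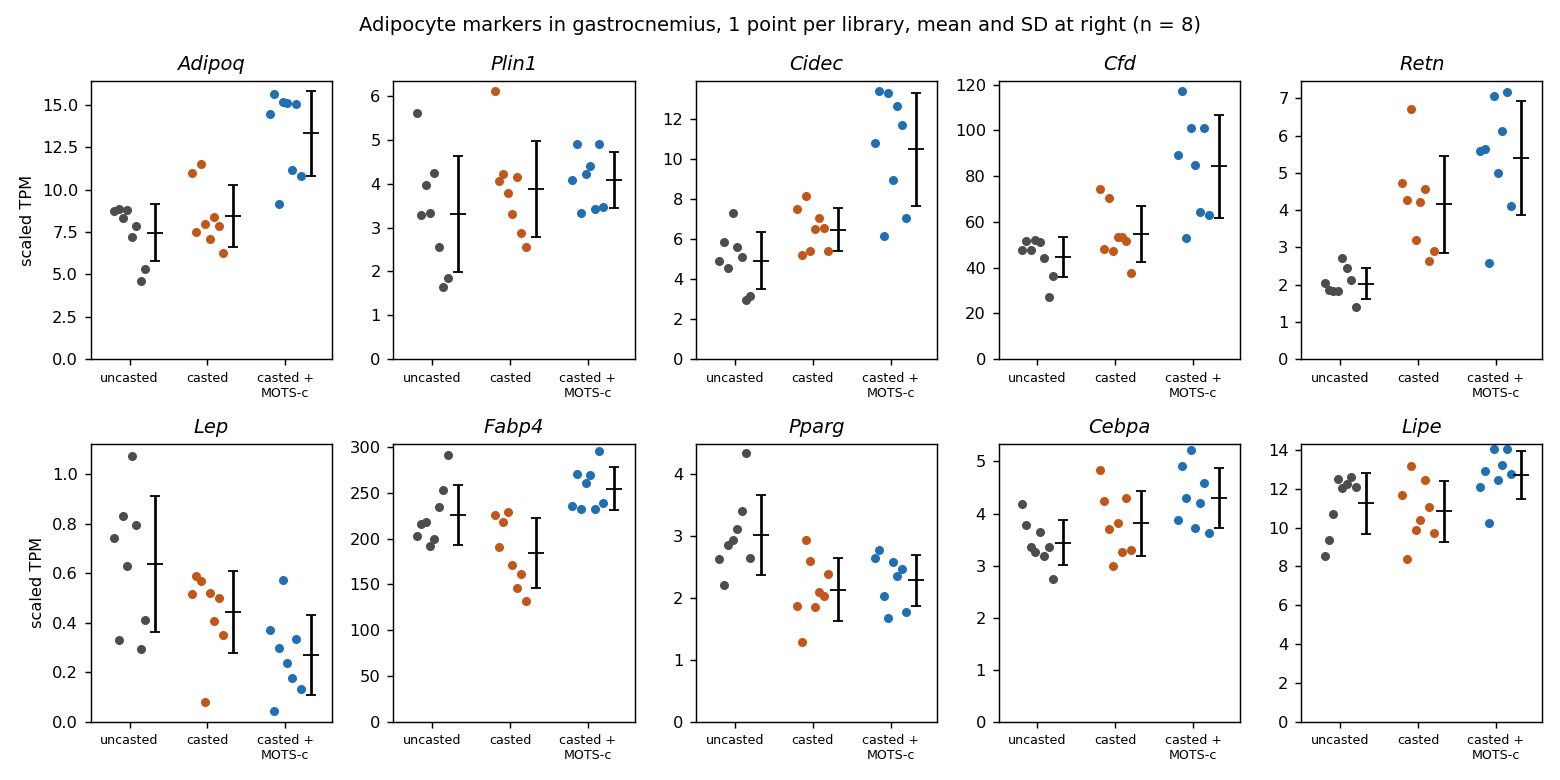
Scaled TPM of the 10 members (vertical axes from 0, a separate range for each gene) in the uncasted, casted and casted MOTS-c groups; each point is 1 library, and the bar at the right of each group is the mean with its SD (n = 8). Adipoq and Cfd in all 8 casted MOTS-c libraries lie just above the highest uncasted library (lowest 9.13 against 8.87, and 53.1 against 52.1). Fabp4 in all 8 lies just above the highest casted library (232 against 230). The share of all genes without such overlap was not counted. Lep has its lowest mean in casted MOTS-c.

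Casting alone, the comparison of the 2 water-injected groups, moved few of the markers. Of the 10, 1 was called higher, against 28.7% of all genes tested, and 2 were called lower, against 27.7%. Retn rose, and Fabp4 and Pparg fell relative to the scaled middle of all genes, while on the deposited TPM Fabp4 and Pparg were 0.21 and 0.01 higher and not called. On the deposited scale 7 members were higher (Adipoq, Plin1, Cidec, Cfd, Retn, Cebpa and Lipe) and 0 lower, against 62.2% and 7.43% of all genes, and 1 member had an unadjusted limma p under 0.05 on the scaled values without being called, Cidec. The median over the 10 members was 0.14 on the scaled and 0.55 on the deposited TPM, beside 0.0064 and 0.39 over all genes.

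Retn (ENSMUSG00000012705, chromosome 8, 3655770 to 3660110, plus strand) encodes resistin, a hormone secreted by white adipocytes in mice. Its level was 1.39, 1.95 and 2.71 scaled TPM (lowest, median and highest) in uncasted libraries, 2.64, 4.25 and 6.73 in casted ones and 2.57, 5.61 and 7.18 with MOTS-c. In the casted group 7 of 8 libraries were above the highest uncasted one, and replicate 7 fell just inside its range. The mean was 2.05 times that of the uncasted group, a log2 difference of 0.74 ± 0.15 (limma adjusted p = 0.000228). Retn was called against the uncasted libraries in casted replicates 1 to 4 (0.90) and in 5 to 8 (0.58), and also on the deposited TPM (1.10).

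Fabp4 (ENSMUSG00000062515, chromosome 3, 10204088 to 10208576, minus strand) encodes the fatty acid-binding protein of adipocytes, which carries fatty acids in the cytosol. It was at 193, 218 and 291 scaled TPM in uncasted libraries, 131, 181 and 230 in casted ones, and 232, 250.02 and 296 with MOTS-c. Of the casted libraries, 5 were below the lowest uncasted one, and the casted group was itself divided: replicates 1 to 4 lay between 190.9 and 230 and replicates 5 to 8 between 131 and 171. For casting the log2 difference was -0.31 ± 0.11 (limma adjusted p = 0.016). For casted replicates 1 to 4 alone it was -0.06 (limma adjusted p = 0.677), and for 5 to 8 alone -0.56 (limma adjusted p = 7.05e-05).

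Pparg (ENSMUSG00000000440, chromosome 6, 115360951 to 115490399, plus strand) encodes PPAR gamma, the nuclear receptor that drives adipocyte differentiation. Uncasted libraries were at 2.22, 2.90 and 4.34 scaled TPM, casted ones at 1.29, 2.07 and 2.94, and MOTS-c ones at 1.68, 2.41 and 2.78. All 8 casted libraries were below the uncasted mean and 5 were below the lowest uncasted library. The log2 difference for casting was -0.36 ± 0.11 (limma adjusted p = 0.00594), and it was called at -0.36 with either set of casted replicates, but was 0.01 on the deposited TPM. Cebpa (chromosome 7, 35119293 to 35121928), the partner of PPAR gamma in this program, was not called: its casting difference was 0.11 ± 0.08 (95% interval -0.06 to 0.29, limma adjusted p = 0.264), from 3.44 ± 0.433 to 3.81 ± 0.623 scaled TPM. Pparg, Cebpa and Lipe overlap genes on the other strand (Gm44079, Gm45091 and 4732471J01Rik), with mean levels of 0, 0.223 and 0.374 scaled TPM. The labels do not say whether reads were counted by strand.

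Adipoq and Cfd, the adipokine genes with the higher levels, were not called for casting. Adipoq (ENSMUSG00000022878, chromosome 16, 23146536 to 23158028, plus strand) encodes adiponectin, an insulin-sensitizing hormone made almost only by adipocytes. It was at 4.58, 8.10 and 8.87 scaled TPM in uncasted and 6.25, 7.92 and 11.5 in casted libraries. These groups overlapped throughout, apart from casted replicates 1 and 3 above the uncasted range. The log2 difference was 0.16 ± 0.14 (95% interval -0.12 to 0.44, limma adjusted p = 0.319), against 0.62 on the deposited TPM (limma adjusted p = 0.000248). Cfd (ENSMUSG00000061780, chromosome 10, 79890853 to 79892655, plus strand) encodes adipsin, a complement protease that fat secretes. Its level was 27.0, 47.7 and 52.1 scaled TPM in uncasted and 37.7, 52.5 and 74.3 in casted libraries, with 4 casted libraries above the uncasted range. The log2 difference was 0.28 ± 0.16 (95% interval -0.05 to 0.61, limma adjusted p = 0.138), and 0.79 on the deposited TPM (limma adjusted p = 0.000122).

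The lipid-droplet genes were close to the threshold or short of it. Cidec (ENSMUSG00000030278, chromosome 6, 113424634 to 113435760, minus strand), whose protein fuses lipid droplets into one, was at 2.94, 5.01 and 7.32 scaled TPM in uncasted and 5.22, 6.54 and 8.14 in casted libraries. All 8 casted libraries were above the uncasted mean, although only 2 were above its highest library. The log2 difference of 0.36 ± 0.16 had a limma adjusted p of 0.0517, just outside the threshold, and it was called under 15 of 33 alternative settings. Plin1 (ENSMUSG00000030546, chromosome 7, 79720218 to 79732903, minus strand) encodes perilipin, the coat protein that guards the droplet from lipases. Its levels were 1.65, 3.30 and 5.61 in uncasted and 2.56, 3.92 and 6.12 scaled TPM in casted libraries, and the difference was 0.21 ± 0.16 (limma adjusted p = 0.259). Lipe (chromosome 7, 25379527 to 25398710), the hormone-sensitive lipase, was at 11.3 ± 1.57 and 10.8 ± 1.56 scaled TPM, a difference of -0.05 ± 0.09 with a 95% interval from -0.23 to 0.13 (limma adjusted p = 0.658), against 0.42 on the deposited TPM.

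Lep (ENSMUSG00000059201, chromosome 6, 29060220 to 29073877, plus strand) encodes leptin, the hormone that reports fat stores to the brain. Its level was 0.293, 0.686 and 1.07 scaled TPM in uncasted libraries, 0.0802, 0.509 and 0.588 in casted ones, and 0.0429, 0.266 and 0.571 with MOTS-c. All 8 casted libraries were below the uncasted mean but 7 were inside the uncasted range. The casting difference was -0.18 ± 0.10 (limma adjusted p = 0.149), and 0.01 on the deposited TPM. At these levels the pseudocount of 1 compresses the log2 scale.

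MOTS-c against water in casted mice gave its largest differences among the members in Adipoq, Cfd, Cidec and Fabp4. None of the 10 members was called by limma, where 0.0204% of all genes tested were called in either direction, and 5 had an unadjusted limma p under 0.05 (Adipoq, Cfd, Cidec, Fabp4 and Lipe), where 13.5% of all genes did. Of the 10 differences, 9 were above 0, and their median was 0.26 beside -0.0050 over all genes. For the 6 mainly adipocyte genes the median was 0.45 and for the other 4 it was 0.18. Differences above 0 were not particular to the members. They were found in 12 of 12 endothelial, 11 of 12 macrophage and 7 of 8 progenitor markers. The same held for 6 of 6 nerve markers and 8 of 8 muscle fibre genes, but for 8 of 15 adipogenic regulators and 1 of 4 adipokine receptors. The number called depended on the casted libraries: 3 members were called against casted replicates 5 to 8 alone, 0 against 1 to 4 alone, and 2 without casted replicate 1. Over all 14690 genes the same fits, in this order, called 678 higher and 838 lower, 1 and 1, and 41 and 22.

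**Figure D2:**
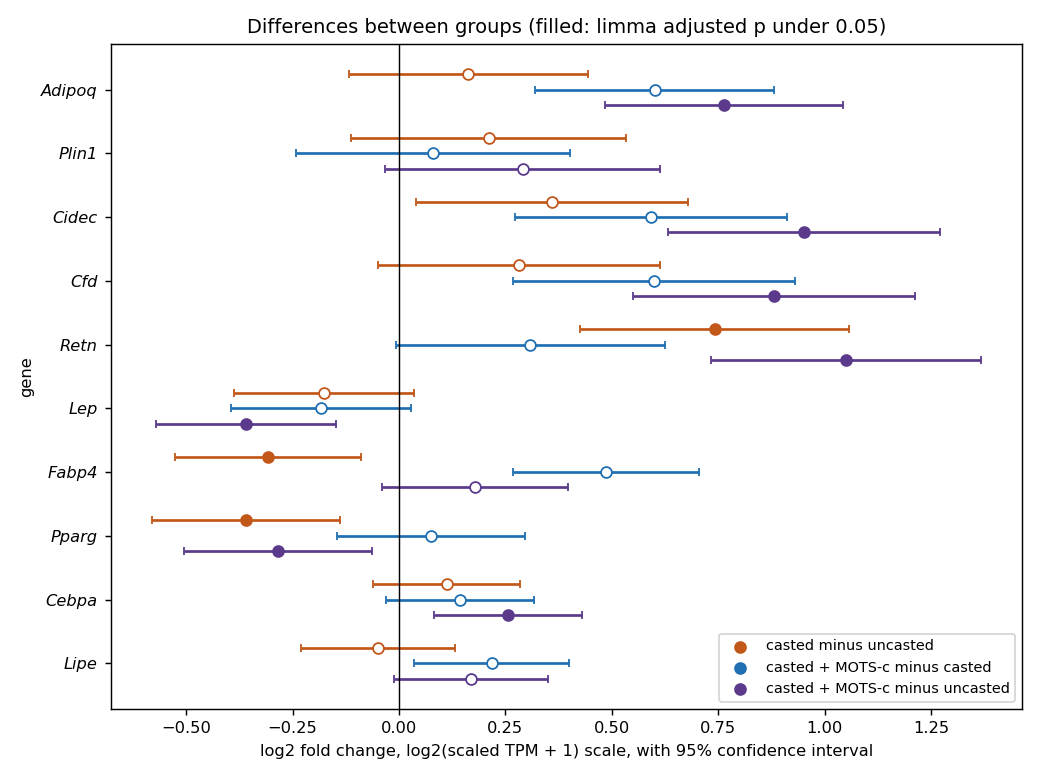
Log2 fold change (horizontal axis, log2 of scaled TPM + 1) of each member with its 95% confidence interval for casted minus uncasted, casted MOTS-c minus casted, and casted MOTS-c minus uncasted; filled points had a limma adjusted p under 0.05. No point is filled for MOTS-c against casting alone; Retn is filled above 0 for casting, and Fabp4 and Pparg are filled below 0 for casting, although on the deposited TPM these casting differences are 0.21 and 0.01.

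Adipoq was at 9.13, 14.8 and 15.6 scaled TPM in the casted MOTS-c libraries, against 6.25, 7.92 and 11.5 in the casted ones. All 8 MOTS-c libraries were above the casted mean and 5 were above the highest casted library. The mean was 1.58 times that of casting alone, a log2 difference of 0.60 ± 0.14 (95% interval 0.32 to 0.88, unadjusted p = 0.00017, limma adjusted p = 0.0826). Against casted replicates 1 to 4 alone the difference was 0.45 (limma adjusted p = 0.909), against 5 to 8 alone 0.75 (limma adjusted p = 0.00743), and without casted replicate 1 the limma adjusted p was 0.0363. Over all alternative settings the limma adjusted p ran from 0.00743 to 0.909.

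For Cfd the MOTS-c libraries were at 53.1, 87.0 and 117.1 scaled TPM, 5 of them above the highest casted library. The ratio of means was 1.54 and the log2 difference 0.60 ± 0.16 (95% interval 0.27 to 0.93, limma adjusted p = 0.155). Taken against casted replicates 1 to 4 it was 0.46 (limma adjusted p = 0.925), and against 5 to 8 it was 0.74 (limma adjusted p = 0.0209). Cidec, at 6.13, 11.3 and 13.4 scaled TPM, had 6 MOTS-c libraries above the highest casted one. Its ratio of means was 1.62 and its log2 difference 0.59 ± 0.16 (95% interval 0.27 to 0.91, limma adjusted p = 0.141), with 0.58 and 0.60 for the 2 sets of casted replicates.

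Fabp4 was the member whose casted and casted MOTS-c libraries did not overlap. How many of all genes tested also had no overlap was not counted. The lowest MOTS-c library, at 232 scaled TPM, was just above the highest casted one, at 230. The mean was 1.38 times that of casting alone and the log2 difference 0.49 ± 0.11 (95% interval 0.27 to 0.71, unadjusted p = 0.000112, limma adjusted p = 0.0826). It was 0.23 against casted replicates 1 to 4 (limma adjusted p = 0.925) and 0.74 against 5 to 8 (limma adjusted p = 0.000295). Without casted replicate 1 the limma adjusted p was 0.0363, and estimated library weights also led to a call. Over all alternatives the limma adjusted p ran from 0.000295 to 0.925.

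The remaining members gave smaller MOTS-c differences, none of them called by limma. Retn was at 0.31 ± 0.15 (95% interval -0.01 to 0.63), with MOTS-c replicate 3 below every casted library. Lipe was at 0.22 ± 0.09 (95% interval 0.04 to 0.40, limma adjusted p = 0.303) and Cebpa at 0.14 ± 0.08 (95% interval -0.03 to 0.32). Plin1 was at 0.08 ± 0.16 (95% interval -0.24 to 0.40) and Pparg at 0.08 ± 0.11 (95% interval -0.14 to 0.30). Plin1 had no MOTS-c library above the casted range, but the top of that range was 1 library, casted replicate 1 at 6.12 scaled TPM. Without it the highest casted library was at 4.22, 4 of 8 MOTS-c libraries were above that, and the Plin1 difference was 0.16 (limma adjusted p = 0.597). Lep was the one member with a difference below 0, at -0.18 ± 0.10 (95% interval -0.40 to 0.03, limma adjusted p = 0.436). Its ratio of means was 0.612, and 7 of 8 MOTS-c libraries were below the casted mean.

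Casted mice with MOTS-c differed from uncasted mice in more of the markers. This comparison shares the uncasted libraries with casting and the MOTS-c libraries with the peptide comparison, so it is no separate evidence for either. A total of 5 members were called higher, against 26.0% of all genes, and 2 were called lower, against 24.7%. On the deposited TPM 8 were higher and 0 lower, against 60.0% and 6.94%. Adipoq, with all 8 libraries above the highest uncasted one, had a mean 1.78 times that of the uncasted group and a log2 difference of 0.76 ± 0.14 (limma adjusted p = 5.37e-05). Cfd, likewise without overlap, was at 1.88 times and 0.88 ± 0.16 (limma adjusted p = 7.04e-05). The share of all genes without overlap between these groups was not counted. Cidec was at 2.13 times and 0.95 ± 0.16 (limma adjusted p = 1.88e-05), with 6 of 8 libraries above the uncasted range. Retn was at 2.67 times and 1.05 ± 0.15 (limma adjusted p = 4.62e-06), with 7 of 8 above it. These genes encode the hormones adiponectin and resistin, the protease adipsin and a droplet-fusing protein.

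Cebpa was also called higher, by 0.26 ± 0.08 (limma adjusted p = 0.0135), with 5 of 8 libraries above the uncasted range. Lep fell by 0.36 on the log2 scale (SE 0.10, limma adjusted p = 0.00527), with a mean 0.424 times that of the uncasted group and 4 libraries below the uncasted range. On the deposited TPM the Lep difference was -0.22 (limma adjusted p = 0.0611). Pparg was called lower at -0.28 ± 0.11 (limma adjusted p = 0.0296), but was 0.03 on the deposited TPM (limma adjusted p = 0.82), and the call was lost in 5 of the fits that left out 1 library (uncasted replicate 6 or 7, or MOTS-c replicate 3, 4 or 8). Fabp4 (0.18 ± 0.11, limma adjusted p = 0.169), Plin1 (0.29 ± 0.16, limma adjusted p = 0.127) and Lipe (0.17 ± 0.09, limma adjusted p = 0.114) were not called. On the deposited TPM each of them was called higher, with Plin1 at 0.62 (limma adjusted p = 0.00121) and Lipe at 0.57 (limma adjusted p = 1.17e-05). On the scaled values Plin1 was called without uncasted replicate 1, at a limma adjusted p of 0.032. Among the secreted products,, Adipoq, Cfd and Retn were called higher and Lep lower in the same 8 animals.

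Several of the mainly adipocyte genes varied together from mouse to mouse, with a lower r when 2 libraries were left out. After subtraction of the group means, the deviations of Adipoq and Cfd over the 24 libraries had a Pearson r of 0.93 (Spearman's rho 0.92), and r was 0.89 without the 2 libraries farthest from the Adipoq median, uncasted replicate 7 and MOTS-c replicate 3. For Plin1 with Adipoq r was 0.78 (rho 0.75, and 0.73 without those libraries), for Cidec 0.78 (0.76 and 0.67), and for Retn 0.58 (0.46 and 0.57). Lep followed Adipoq less closely, at 0.34 (0.28 and 0.25). These correlations are descriptions: both genes of a pair are read from the same library and share its scaling. Over the 15 pairs of mainly adipocyte genes r lay between 0.33 and 0.93 with a median of 0.58, and over the 6 pairs of the other 4 genes between -0.34 and 0.47 with a median of 0.10.

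The same libraries were low or high for several genes. Uncasted replicate 7 was the lowest of its group in 5 of the 6 mainly adipocyte genes, and replicate 8 was among the lowest 2 in 5. In the casted group, replicate 3 was among the highest 2 in 6 of 6 and replicate 8 among the lowest 2 in 5. With MOTS-c, replicate 3 was the lowest in 5 and replicate 4 among the highest 2 in 5. The summed level of the 6 genes ran from 38.6 to 74.0 scaled TPM in uncasted, 55.1 to 104.2 in casted and 74.5 to 156.7 in casted MOTS-c libraries.

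**Figure D3:**
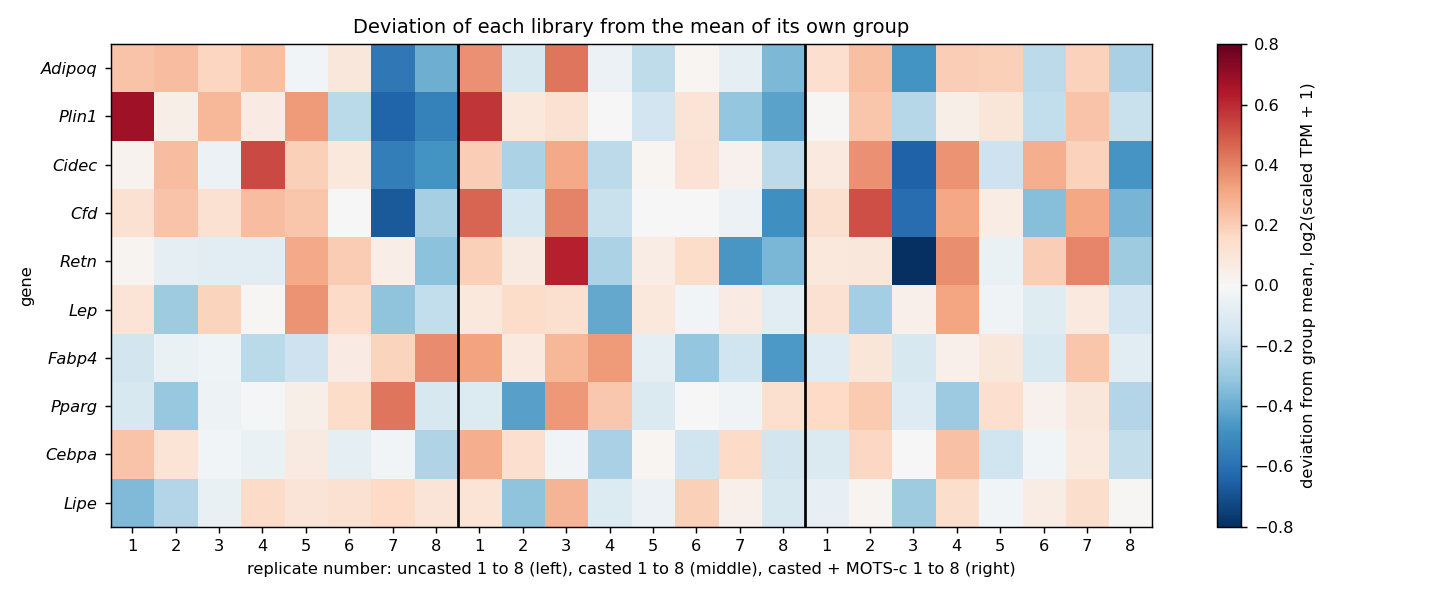
Deviation of each library (columns, by group and replicate) from the mean of its own group on the log2(scaled TPM + 1) scale for the 10 members (rows); red is above and blue below the group mean. Uncasted replicate 7 and MOTS-c replicate 3 are blue in most of the upper 5 rows, and casted replicates 1 and 3 are red in them.

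Within single groups of 8 libraries, r with Adipoq for the mainly adipocyte genes was lower without the 2 libraries farthest from the Adipoq median. These libraries were picked by Adipoq itself. Leaving them out narrows its range, which alone can lower r, and leaves 6 libraries. The drop therefore cannot show what the relations rest on. In uncasted muscle r with Adipoq was 0.92 for Cfd, 0.87 for Cidec and 0.79 for Plin1, but 0.18, 0.23 and 0.07 over the 6 libraries kept without replicates 7 and 8. Retn went from 0.14 to -0.91 and Lep from 0.48 to -0.79 in the same step. In the casted group, without replicates 1 and 3, Cfd went from 0.93 to 0.75, Plin1 from 0.79 to 0.72, Cidec from 0.81 to 0.45 and Retn from 0.74 to 0.30. In the casted MOTS-c group, without replicates 3 and 8, Cfd went from 0.96 to 0.90 and Plin1 from 0.91 to 0.88, while Cidec went from 0.72 to -0.16 and Retn from 0.78 to -0.04. Cfd and Plin1 had the highest r with Adipoq in both casted groups when those libraries were left out.

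For Fabp4, Pparg and Lipe, r with Adipoq in uncasted muscle was -0.79, -0.62 and -0.55, and without replicates 7 and 8 it was -0.13, -0.68 and -0.54. In the casted group it was 0.69, 0.30 and 0.71, and without replicates 1 and 3 it was 0.44, -0.03 and 0.47. With MOTS-c it was 0.74, 0.45 and 0.64, and without replicates 3 and 8 it was 0.68, 0.05 and -0.0056. Without those libraries r lay between -0.13 and 0.05 for Fabp4 in uncasted muscle, Pparg in both casted groups and Lipe with MOTS-c. For the same reason as above, this cannot show that the full values rest on those libraries. Whether r differed between the groups was not tested.

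By the same measure, the 10 tested genes outside the members that were most like Adipoq over the 24 libraries were Cdo1 (r = 0.77), Pck1 (0.77), Cnot1 (0.76), Cyp2e1 (0.72), Cyp2f2 (0.71), Tmem45b (0.71), Ntn1 (0.71), C7 (0.70), Prkar2b (0.68) and Col8a2 (0.68). Cdo1 encodes cysteine dioxygenase, and Pck1 encodes the cytosolic phosphoenolpyruvate carboxykinase that serves glycerol synthesis in fat. Pck1 was at 3.51 ± 0.848 scaled TPM in uncasted, 5.16 ± 1.91 in casted and 8.78 ± 2.47 in casted MOTS-c libraries. Its log2 difference was 0.41 for casting (limma adjusted p = 0.0501) and 0.68 for MOTS-c (limma adjusted p = 0.134). Of the 10 genes, 0 were called higher and 1 lower (Col8a2) for casting, against 28.7% and 27.7% of all genes. For MOTS-c 1 was called higher (Cyp2e1), against 0.0204% of all genes in either direction. In casted MOTS-c against uncasted libraries 5 were called higher and 1 lower, against 26.0% and 24.7%.

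Cyp2e1, a cytochrome P450 that oxidizes ethanol and is also expressed in fat, was one of the genes called for MOTS-c over all genes, and Arxes2, an adipocyte gene, was another. Cyp2e1 was at 12.8, 20.03 and 27.1 scaled TPM in casted and 26.5, 41.8 and 53.0 in casted MOTS-c libraries (log2 difference 0.97, limma adjusted p = 0.0417). Arxes2 was at 0.410, 0.628 and 0.771 and then 0.904, 1.27 and 1.92 (0.48, limma adjusted p = 0.0417), without overlap, a trait not counted over all genes. Neither call was stable: with a pseudocount of 0.1, without the filter, with only the compared groups in the fit and against casted replicates 1 to 4 alone neither gene was called, and among the 24 fits that each left out 1 library Cyp2e1 was not called in 10 and Arxes2 in 12. Over all alternatives the limma adjusted p of Cyp2e1 ran from 0.00312 to 0.402 and that of Arxes2 from 0.0123 to 0.402. Arxes1, the close paralog of Arxes2, stayed below the filter, with at most 0.339 scaled TPM in any library, and the labels do not say how reads were divided between the pair.

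Other genes of adipocyte lipid storage were called in both directions with casting, at shares near those of all genes. Of 17 tested genes, 4 were called higher and 5 lower, where 28.7% and 27.7% of all genes were. The median was -0.11 beside 0.0064 over all genes. On the deposited TPM 9 were higher and 3 lower, against 62.2% and 7.43% of all genes. Scd1, the stearoyl-CoA desaturase, rose by 0.86 ± 0.25 (26.5 to 50.0 scaled TPM, limma adjusted p = 0.0046) and Acaca, acetyl-CoA carboxylase, by 0.68 ± 0.12. Gpd1, which makes glycerol phosphate, fell by 1.73 on the log2 scale (362 to 112 scaled TPM, limma adjusted p = 2.4e-07), and G0s2, an inhibitor of the lipase ATGL, fell by 0.99. Most of these genes are also expressed in muscle fibres. With MOTS-c limma called 0 of the 17, and 5 had an unadjusted p under 0.05, where 13.5% of all genes did.

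Among 15 regulators of adipocyte differentiation, 2 were called higher and 6 lower for casting, with a median of 0.11. Of all genes tested, 28.7% were called higher and 27.7% lower. On the deposited TPM 8 of the 15 were higher and 1 lower, against 62.2% and 7.43% of all genes. Stat5a rose by 1.71 ± 0.15 (4.71 to 18.0 scaled TPM, limma adjusted p = 2.73e-09) and Cebpd, an early C/EBP factor, by 0.89 ± 0.36. Rxrg, a partner receptor of PPAR gamma, fell by 0.98 on the log2 scale and Zfp467 by 0.70. For MOTS-c limma called 0 of the 15, and 2 had an unadjusted p under 0.05, where 13.5% of all genes did. In the lipolysis group, 2 of 6 tested genes were called higher and 1 lower for casting (on the deposited TPM 5 and 1), beside the same shares of all genes. Pnpla2, the lipase ATGL that begins triglyceride breakdown, rose by 1.002 ± 0.18 (143 to 300 scaled TPM), while Mgll, the monoglyceride lipase, fell by 0.72. For MOTS-c limma called 0 of these 6, and 1 had an unadjusted p under 0.05, again beside 13.5% of all genes.

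Receptors for the adipokines were measured in the same libraries. Adipor1 (156 scaled TPM in uncasted and 159 in casted libraries) and Adipor2 (62.5 and 67.8) had casting differences of 0.02 ± 0.05 and 0.11 ± 0.08, and were not called, but on the deposited TPM they were 0.54 and 0.62 higher. Cdh13, T-cadherin, which binds adiponectin on vessel walls and fibres, fell by 1.03 on the log2 scale, from 48.0 to 24.02 scaled TPM (limma adjusted p = 3.07e-06), and was also lower on the deposited TPM (-0.53). Lepr, the leptin receptor, was at 1.34 and 1.69 scaled TPM, a difference of 0.20 ± 0.15 (limma adjusted p = 0.29). For MOTS-c limma called 0 of these 4 receptors, where 0.0204% of all genes were called. An unadjusted p under 0.05 was found for 0 of them and for 13.5% of all genes, and 4 genes are too few to tell these apart.

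Markers of other cells were read in the same libraries. With casting, 11 of 12 endothelial markers were called lower and 1 higher (Cldn5), with a median of -0.55, where 27.7% and 28.7% of all genes were called. On the deposited TPM 4 were lower and 2 higher, against 7.43% and 62.2%. Their summed level ran from 185 to 259 scaled TPM in uncasted, 130.2 to 184 in casted and 159.5 to 201 in casted MOTS-c libraries. Kdr, the VEGF receptor, fell by 0.83 on the log2 scale and Gpihbp1, which holds lipoprotein lipase on capillaries, by 0.80. Fabp4, which capillaries also express, was lower with casting on the scaled values, though not on the deposited TPM, and all 12 endothelial markers had MOTS-c differences above 0 (median 0.13), of which limma called 0 and 4 had an unadjusted p under 0.05. Over all genes 13.5% had an unadjusted p under 0.05 for MOTS-c. The part of endothelial cells in the Fabp4 values was not tested.

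Of 12 macrophage markers, 10 were called higher and 0 lower with casting, with a median of 0.56, against 28.7% and 27.7% of all genes. On the deposited TPM 12 were called higher, against 62.2% of all genes. Cd68 rose by 2.54 ± 0.29 and Ctss by 1.10 ± 0.22. For MOTS-c 11 of 12 differences were above 0 with a median of 0.43. Of these, limma called 0 and 8 had an unadjusted p under 0.05, where 13.5% of all genes did. The summed level ran from 97.5 to 129 scaled TPM in uncasted, 122 to 289 in casted and 153 to 375 in casted MOTS-c libraries. The highest sum was in MOTS-c replicate 3, the library with the lowest Adipoq, Plin1, Cidec, Cfd and Retn of its group. The lowest sum of that group was in replicate 8, which was also among the lowest 2 in 5 of the 6 mainly adipocyte genes. Whether the macrophage sum and these genes varied together was not tested. The part of macrophages in the values of Fabp4, Pparg and Cebpa was not tested.

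**Figure D4:**
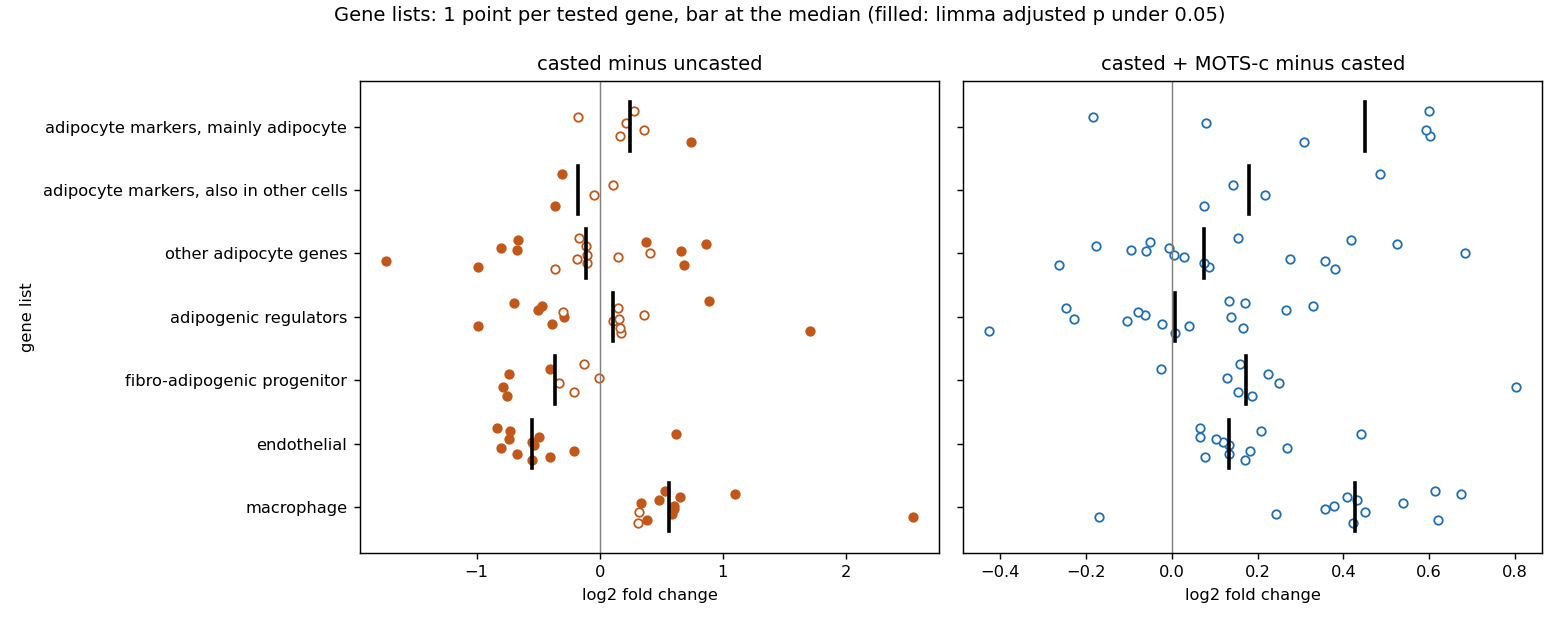
Log2 fold changes (horizontal axes, a different range in each panel) of the tested genes of 7 lists for casted minus uncasted (left) and casted MOTS-c minus casted (right); each point is 1 gene, filled where the limma adjusted p was under 0.05, and the bar is the list's median. For casting the endothelial median is -0.55 (-0.06 on the deposited TPM) and the macrophage median 0.56 (0.91), and for MOTS-c no point of these lists is filled and the mainly adipocyte genes have a median of 0.45.

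Fibro-adipogenic progenitor markers, which mark the cells that give rise to muscle adipocytes, were lower in part. With casting 4 of 8 were called lower and 0 higher (median -0.37), but on the deposited TPM 0 were lower and 3 higher. Of all genes, 27.7% were called lower and 28.7% higher with casting, and 7.43% and 62.2% on the deposited TPM. Pi16 fell by 0.78 on the log2 scale and Cd34 by 0.75, and both were lower on the deposited TPM as well (-0.31 and -0.25) without a call. With MOTS-c Pi16 was at 0.80 ± 0.18 (8.93 to 16.5 scaled TPM, limma adjusted p = 0.0826), and 7 of the 8 differences were above 0 with a median of 0.17; limma called 0 of the 8 and 1 had an unadjusted p under 0.05. Nerve and Schwann cell markers were called lower in 4 of 6 cases with casting (median -0.50), among them S100b (-0.60), and on the deposited TPM in 2. For MOTS-c limma called 0 of the 6 nerve markers, and 5 had an unadjusted p under 0.05 (median 0.34), where 13.5% of all genes did.

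Among muscle fibre genes, 7 of 8 were called lower with casting and 1 higher (Myh1, by 0.45), against 27.7% and 28.7% of all genes. Acta1 was at -1.78 and Pvalb at -1.64. On the deposited TPM 6 were lower and 1 higher, against 7.43% and 62.2% of all genes. For MOTS-c all 8 fibre genes had differences above 0, with a median of 0.16. Limma called 0 of them, and 0 had an unadjusted p under 0.05, where 13.5% of all genes did. The keratinocyte genes Krt5 and Krt14 were listed at 0 in 23 of 24 libraries each. Krt10 fell from 2.34 to 1.35 scaled TPM with casting (-0.54, limma adjusted p = 0.00122, and -0.22 on the deposited TPM without a call).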

How the data were processed

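Values are the deposited TPM of 24 poly-A libraries. Per the submitters' processing notes, the authors used FastQC, STAR, RSEM and DESeq2 with the build GRCm38.p6; versions and the annotation release are not given in the sources used here. TPM sum to a fixed total, so the depth of a library is unknown and no counting interval can be given. Symbols came from a GENCODE annotation of GRCm38 (55141 identifiers matched). TPM were scaled by an unweighted trimmed mean of log ratios (trims of 30% for ratios and 5% for mean levels on each side) over the 14690 genes with at least 0.5 TPM in at least 8 libraries. limma 3.58.1 in R 4.3.3, with a mean-variance trend, was fitted to log2(scaled TPM + 1) as 3 group means over all 24 libraries, without covariates, and tested on simulated data. The pseudocount of 1 understates changes of low genes. Tests were two-sided. Each library is a separate mouse, and no pair of libraries held the same values.

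The members and the other gene lists were chosen with earlier results of these data known, and support nothing independently. Named genes are all members, the genes of each other list called for casting with the 2 largest rises and the 2 largest falls, those called for MOTS-c, every gene of lists of at most 4, and the 10 most like Adipoq; some genes this rule takes are not reported here. Alternatives tried were no scaling, median-of-ratios scaling, a pseudocount of 0.1, no filter, only the compared groups in the fit, library weights, a replicate block, casted replicates 1 to 4 or 5 to 8 alone, and leaving out each library. Transcripts of the members were searched against all annotated transcripts (blastn 2.17.0), and Plin1 alone shared a stretch of at least 90% identity, of 143 to 170 bases, with 4 predicted genes.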

Additional observations from a re-analysis of the deposited data

Results flagged for a closer look

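Of 30 gene and group combinations (10 members in 3 groups of 8), 2 held a library far from the others by Dixon's test, where chance gives about 1 in 20. Plin1 in casted replicate 1 was at 6.12 scaled TPM, and the next highest casted library was at 4.22. Lep in casted replicate 4 was at 0.0802 scaled TPM, and the next lowest casted library was at 0.351.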

How the results depend on the processing

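On the deposited TPM without scaling, 7 members were called for casting instead of 3, and the sign turned for Lep (0.0055), Fabp4 (0.21), Pparg (0.0061) and Lipe (0.42) for casting and for Pparg (0.030) in casted MOTS-c against uncasted libraries. For MOTS-c against casting alone, no member was called by limma on all libraries (5 with an unadjusted p under 0.05). With library weights 1 was called (Fabp4), and with only casted replicates 5 to 8 there were 3 (Adipoq, Cfd and Fabp4). Over all genes, library weights gave 25 higher and 10 lower, and casted replicates 5 to 8 gave 678 and 838. With only casted replicates 1 to 4 the Plin1 difference was -0.11. Leaving out 1 library at a time gave 3 to 4 members for casting, 0 to 2 for MOTS-c and 6 to 8 for casted MOTS-c against uncasted. The 2 for MOTS-c came without casted replicate 1, a fit that called 41 higher and 22 lower over all genes. Same-numbered libraries of the groups were not treated as pairs in the main fit. The correlation of their deviations ran from -0.24 to 0.37 and was over 0.1 in 6 of 24 pairs. Of the 24 libraries, 8 correlated best with a library of their own number. How many would do so by chance was not computed, and whether same-numbered libraries share a source of variation was not tested. With the replicate block 4 members were called for casting (Cidec in addition), 0 for MOTS-c and 7 for casted MOTS-c against uncasted, and over all genes MOTS-c gave 13 higher and 5 lower, beside 2 and 1 without it. The other member differences kept their sign under every alternative run. Because TPM carry no depth, how far counting noise limits Lep, at under 1.1 scaled TPM in every library, is unknown.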
